A study of Mus musculus with 33 samples.

Results

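The NF-kB and TNF inflammatory genes described here are 39 listed genes out of the 32285 genes in each count matrix, and all 39 were found by symbol. By role they comprised 3 cytokines, 4 receptors, 5 transcription factors, 8 inhibitors and feedback genes, 6 adaptors and kinases, 5 cell survival genes, and 8 enzymes, matrix genes and other effectors. They were measured by single-cell RNA sequencing in mouse bone (femurs and tibias), brain, liver and lung. The study used SAMENT labelling. As background that the labels do not spell out, this is known as a method in which cancer cells carrying sortase A attach a biotin substrate to the cells next to them. Cells were sorted into a biotin-positive (tagged) and a biotin-negative (untagged) fraction. After intracardiac injection, each of the 4 tissues gave 4 samples of each sort. After iia injection, 1 pooled bone sample carried hashtags for 6 biotin-positive and 6 biotin-negative samples.

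All groups shared an overnight period with the SAMENT substrate before collection, and all tissues were minced and digested with warm collagenase before sorting. The intracardiac samples differed in tissue, in biotin sort and in replicate number, and every one had received the injection, so no sample came from a mouse without it. The sources used here give no mouse strain, genotype, age or injected cells, and do not say whether samples with different numbers came from separate animals. The p-values therefore measure the spread between these samples, which may be technical.

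NF-kB is a family of dimeric transcription factors that inhibitory IkB proteins hold in the cytoplasm. Signals such as TNF, interleukin-1 and bacterial products activate kinases that remove the inhibitors, and the freed dimers enter the nucleus and switch on cytokines, survival genes and, in a feedback loop, their own inhibitors. In neutrophils and macrophages this programme is part of the early inflammatory response, and much of it is transcribed within a short time of a stimulus.

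Several of the feedback members carry the letters that NF-kB dimers are known to bind close to where transcription starts. RefSeq promoters on GRCm38.p6 were available for 29 of the 39 members, and 11 of them held the 10-base kB consensus motif on either strand within 250 bases before the start, against 8.23% of 27025 genes in the same table. The motif was present in 6 of 7 inhibitors and feedback genes and in 2 of 2 transcription factors with a promoter in the table. It was present in 1 of 3 adaptors and kinases, 1 of 5 survival genes, 1 of 7 effectors, 0 of 3 receptors and 0 of 2 cytokines. The windows of 5 members that recur in the results or hold several matches are shown 5′ to 3′ on the gene's strand, with the matches in capitals. The matches within a window can overlap, so that one run of capitals can hold more than 1 match. These are matches of letters and were not tested for binding.
Nfkbia, chr12:55492648-55492696, minus strand: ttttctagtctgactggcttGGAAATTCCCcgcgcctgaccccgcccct
Tnfaip3, chr10:19015411-19015555, minus strand: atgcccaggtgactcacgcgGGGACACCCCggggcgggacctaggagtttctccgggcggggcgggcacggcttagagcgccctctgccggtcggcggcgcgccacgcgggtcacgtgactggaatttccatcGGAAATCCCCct
Nfkbid, chr7:30422160-30422254, plus strand: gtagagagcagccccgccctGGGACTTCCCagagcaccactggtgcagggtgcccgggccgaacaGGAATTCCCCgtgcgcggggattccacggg
Rel, chr11:23771031-23771081, minus strand: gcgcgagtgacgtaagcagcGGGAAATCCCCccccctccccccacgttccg
Nfkb2, chr19:46304678-46304736, plus strand: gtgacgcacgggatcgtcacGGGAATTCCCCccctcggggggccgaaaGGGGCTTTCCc

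After filtering, 55366 intracardiac cells (94 to 3505 per sample, 482617 to 44834665 UMIs per sample) and 22362 cells from the iia injection (249 to 3480 per sample, 2149784 to 27903856 UMIs) remained. A UMI is a molecular tag, so a count is of captured molecules. Levels are CPM (counts-per-million), the UMIs of a gene scaled to the total of the sample or cell class. The libraries of both injections were made with different chemistry, and levels were not compared between them. Cells were clustered without the 39 members and named from marker lists, and each name stands for cells like that type (neutrophil-like and so on). Unnamed clusters held 6.73% of intracardiac and 19.5% of iia cells. In the intracardiac libraries 325 barcode sequences occurred in more than 1 library (650 cells), and 0 were shared within a replicate number.

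Neutrophils held the highest summed level of the 39 members among the named intracardiac classes. The median over 32 samples was 11551 CPM, with a range from 2895 to 22957. Microglia followed at 6862 (3 samples), then macrophages at 4976 (26 samples), alveolar macrophages at 4966 (5 samples), dendritic cells at 4291 (18 samples), monocytes at 3758 (27 samples), T cells at 3484 (25 samples) and B cells at 2295 (26 samples). The ranges over samples of these neighbouring classes overlapped. The medians pool the tissues in which a class was found, and within lung alone the order differed, with tagged samples at 7083 ± 1657 for monocytes, 6211 ± 2201 for macrophages and 4654 ± 1449 for alveolar macrophages (mean ± SD, n = 4 each). The lowest was plasma cells, at 1100 (4 samples). Immature neutrophils were at 2428 over 16 samples, from 1510 to 3439. Unnamed cluster 14, led by Cxcl3, Ccl3 and Rsad2 and reaching 20 cells in 4 lung samples only, had the highest median, at 23645 (16776 to 36312). In the same 4 samples, lung untagged 2 and 4 and tagged 1 and 4, it was at 29307, 17983, 36312 and 16776 and the whole neutrophil class at 15322, 12848, 22957 and 13460. Neutrophil cluster 12 was at 23388, 15775, 27074 and 16828 there, so in the last sample it did not lie under cluster 14. Its leading genes include chemokines that NF-kB is known to induce, although the members themselves were left out of the clustering.

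The members were not highest in the same cells. Cluster 14 held the highest median of 20 members, microglia of 6, unnamed cluster 28 (led by Calca, Il1rl1 and Gata3) of 5, alveolar macrophages and dendritic cells of 2 each, and neutrophils of 1. These ranks set classes found in 1 tissue, such as cluster 14 in lung, against classes pooled over 4, and they can differ within a tissue. Among the cytokines, Tnf had its highest median in microglia, at 505 CPM over 3 samples, followed by 280 in cluster 14 (145 to 1499 over 4 samples), 79.2 in macrophages and 46.8 in neutrophils. The range of cluster 14 overlapped that of microglia, 403 to 1073. All 3 microglia samples were tagged brain samples, whereas the other classes pool tissues and sorts, and dissociation genes in microglia summed to 34769 ± 2767 CPM (SD, n = 3). The part of either in this order was not tested. Il23a, a subunit of interleukin-23, reached 87.9 in cluster 14 and 3.74 in neutrophils. Il12b, the subunit shared by interleukin-12 and interleukin-23, had a median above 0 in dendritic cells only, at 2.32 with a range from 0 to 321 over 18 samples.

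Among the receptors, Clec4e, a lectin receptor for microbial and dead-cell ligands, had medians of 2211 in cluster 14, 983 in neutrophils, 333 in monocytes and 10.9 in B cells. Cd40, which receives help from T cells, had medians of 44.7 in unnamed cluster 24, led by Vpreb3, and 37.9 in B cells. Of the transcription factors, Rel had medians of 271 in microglia, 234 in B cells and 87.6 in neutrophils. Cebpd, a C/EBP factor of the acute-phase response, had its highest pooled median in neutrophils, at 291, next to 281 in endothelial cells.

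The inhibitors also peaked in different cells. Nfkbia, which encodes IkB alpha, had medians of 6468 in cluster 14, 1871 in microglia, 1620 in neutrophils, 1361 in macrophages and 261 in B cells. Tnfaip3, which encodes the ubiquitin-editing inhibitor A20, was highest in cluster 28, at 1690, and stood at 604 in microglia, 436 in T cells and 170 in neutrophils. Tnip3, a partner of A20, was at 196 in dendritic cells, 27.2 in macrophages and at a median of 0 in neutrophils. Malt1, the protease that links antigen receptors to NF-kB, was at 277 in B cells and 50.1 in neutrophils.

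Among the survival genes and effectors, some had higher medians in macrophage classes and others in neutrophils. Bcl2a1b, a BCL2 relative that blocks cell death, had medians of 866 in microglia, 431 in alveolar macrophages and 24.4 in neutrophils. Its near-copy Bcl2a1d was highest in alveolar macrophages, at 210. Their reference transcripts matched at 99.1% of 817 aligned bases, so reads could be split between them and both values are uncertain. Pim1, a kinase that promotes survival, was at 1133 in neutrophils and 116 in B cells. G0s2, an inhibitor of fat breakdown, was at 2798 in neutrophils, 63.8 in monocytes and 38.8 in macrophages. Its pooled median was higher in cluster 14, at 3648, but in the 4 lung samples with cluster 14 neutrophils were higher, at 3881, 4555, 6523 and 4912 against 3718, 3577, 4573 and 2931. Acod1, which makes itaconate, was at 664 in neutrophils and 19.0 in macrophages. Tnfaip2 was highest in alveolar macrophages, at 730. Ptx3, a secreted pattern-recognition protein, had a median of 0 in each intracardiac class and unnamed cluster.

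**Figure D1:**
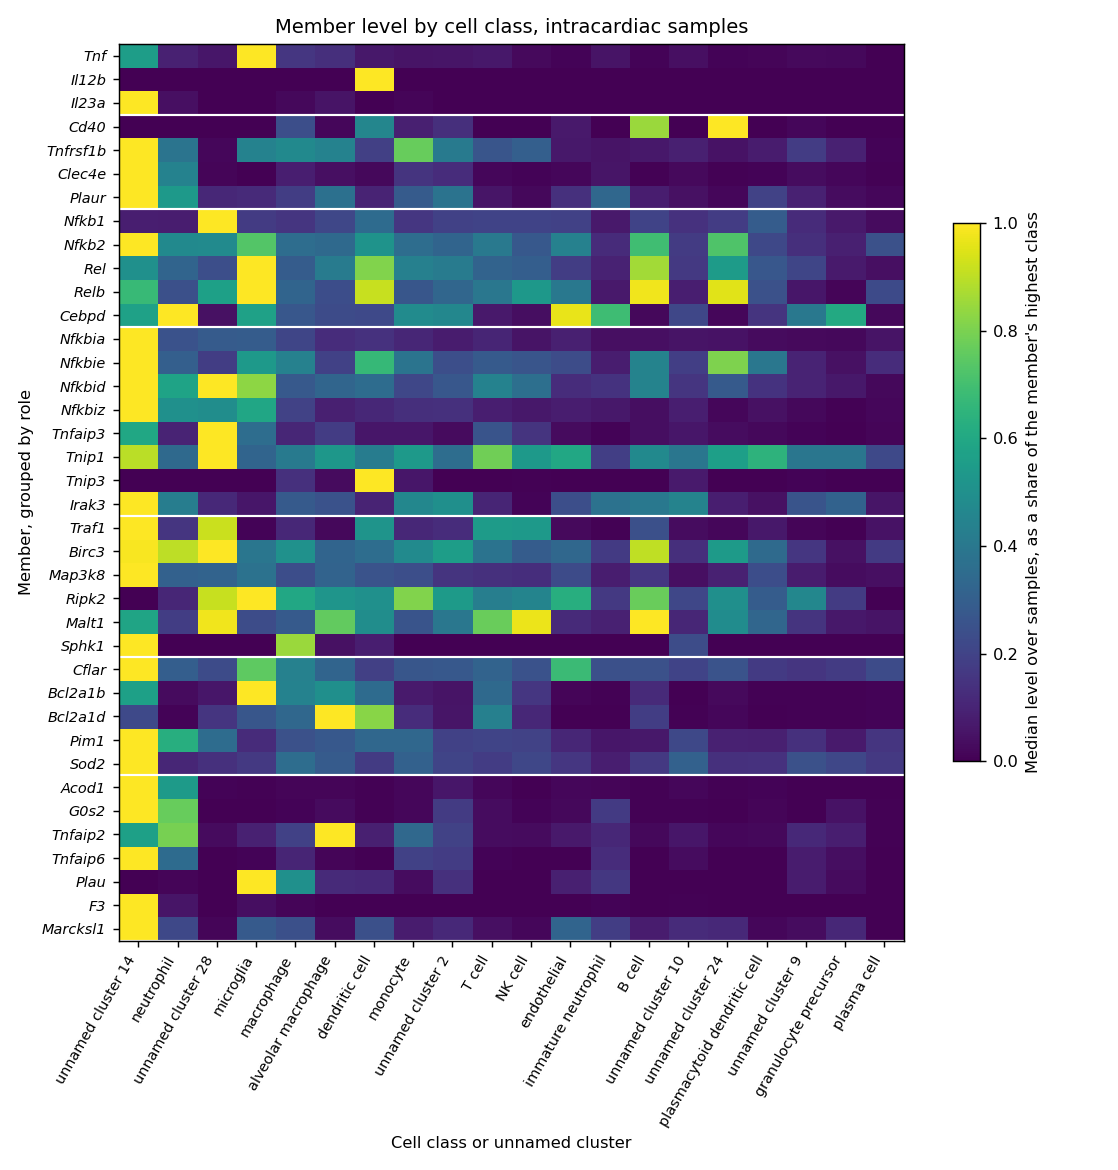
Level of each member except Ptx3 (rows, grouped by role) in each intracardiac cell class or unnamed cluster (columns), as the median over samples divided by that member's highest class median. Cluster 14 is the brightest column for 20 members, while Malt1 peaks in B cells, Tnip3 in dendritic cells and Plau in microglia.

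In the bone samples of the iia injection the highest summed level was again in an unnamed cluster led by Hcar2, Cxcl2 and Il1b (cluster 7), at a median of 13415 over 10 samples. Macrophages were at 4919 (6 samples), B cells at 2858 (6 samples), monocytes at 2758 (9 samples) and neutrophils at 2728 (12 samples). Cluster 7 held the highest median of 13 members, macrophages of 6 and B cells of 5. Plaur, the receptor of urokinase, was at 1916 in cluster 7 and 554 in neutrophils. Plau, which encodes urokinase itself, was highest in macrophages, at 99.8, and Birc3, a ubiquitin ligase of TNF receptor complexes, in B cells, at 367.

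Untagged neutrophils of the 4 tissues held different levels of the members, lowest in bone and highest in lung. Their summed member level was 3859 ± 1395 CPM in bone, 7507 ± 1054 in the brain, 12682 ± 1170 in liver and 15685 ± 3096 in lung (mean ± SD, n = 4 each). The 4 bone samples were at 5901, 3604, 3036 and 2895, and the 4 brain samples at 6484, 8515, 8312 and 6719. The 4 liver samples were at 13604, 12898, 10981 and 13245, and the 4 lung samples at 20064, 15322, 14507 and 12848. Every bone sample was under every brain sample and every brain sample under every liver sample, while liver and lung overlapped. Nfkbia, G0s2, Clec4e and Pim1 made up much of these sums. Without these 4 genes the levels were 1982 ± 739 in bone, 3067 ± 872 in the brain, 4508 ± 814 in liver and 5929 ± 1443 in lung (n = 4 each).

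**Figure D2:**
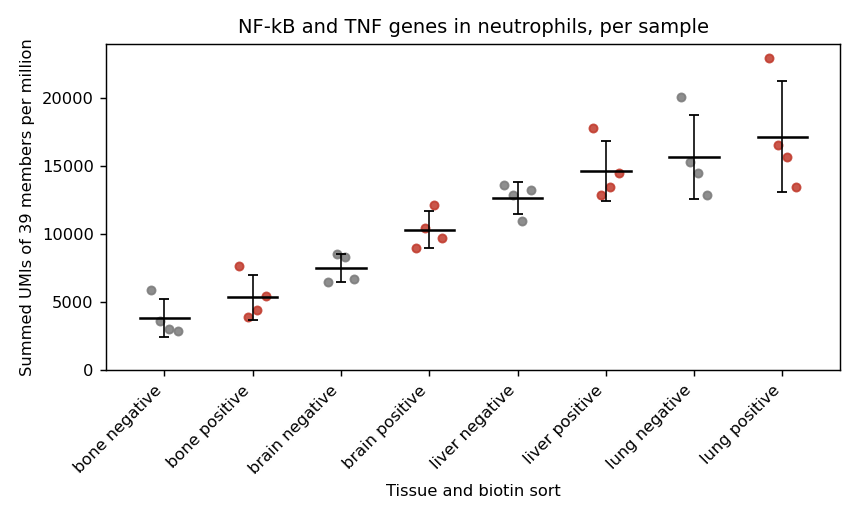
Summed CPM of the 39 members in neutrophils (vertical axis) for each tissue and biotin sort (horizontal axis), with 1 point per sample, the mean as a line and bars of 1 SD. Only the intracardiac samples are shown, and means run from 3859 in untagged bone to 17155 in tagged lung neutrophils.

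Bone neutrophils had lower levels of many members. Against the mean of the other 3 tissues, 16 of the 32 members that passed the low-count filter fell at an adjusted p under 0.05 (edgeR quasi-likelihood test, Benjamini-Hochberg) and 0 rose, where 7.44% of 7753 genes were called in either direction, 4.31% lower and 3.13% higher. The median log2 fold change of the 32 was -1.20, against 0.04 over all genes. The calls comprised 2 of 2 cytokines, 1 of 3 receptors, 1 of 5 transcription factors, 4 of 7 inhibitors, 3 of 4 adaptors and kinases, 2 of 5 survival genes and 3 of 6 effectors. The 1 transcription factor was Nfkb2. Its call and that of Tnf were lost without bone replicate 3 or 4, that of Acod1 without replicate 3 and that of Tnfaip2 without replicate 4. The other 7 of the 39 members had too few UMIs to be tested. With the replicate number as a block 26 members fell, where 22.7% of genes were called in either direction, and over the fits that left out 1 sample the count ran from 13 to 22.

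G0s2 was at 1114, 706, 383 and 467 CPM in the 4 bone samples, 1482 to 2311 in brain, 2398 to 4818 in liver and 3881 to 6310 in lung. No bone sample reached the lowest sample of another tissue, and its level fell by 2.34 ± 0.24 (log2, SE, adjusted p = 2.78e-05). Nfkbia was at 599.6, 373, 365 and 305.3 in bone, 730 to 1277 in brain, 1374 to 2984 in liver and 1679 to 3178 in lung. It fell by 2.04 ± 0.22 on the log2 scale (adjusted p = 4.93e-05), again with no overlap between bone and the rest. Pim1 was at 452, 293, 353 and 252 in bone, 556 to 849 in brain, 1209 to 1473 in liver and 1415 to 1835 in lung, and fell by 1.78 ± 0.16 (adjusted p = 6.84e-06). Map3k8, the kinase TPL2, was at 47.5, 42.0, 37.2 and 30.7 in bone and between 63.9 and 158 in the other tissues, and fell by 1.395 ± 0.17 (adjusted p = 0.000178).

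The largest fold change was that of Il23a, which fell by 3.22 ± 0.62 on the log2 scale (adjusted p = 0.00511). Its bone samples held 2, 2, 4 and 4 UMIs, and its lung samples held 85, 191, 2 and 20. Bone levels were 1.46, 0.412, 1.02 and 0.414 CPM and lung levels 32.0, 30.6, 5.57 and 3.61, so 2 lung samples lay well over the others. Tnfaip3 was at 52.7, 53.1, 19.4 and 9.83 in bone and 433, 589, 326 and 163 in lung, and fell by 2.77 ± 0.50 in bone (adjusted p = 0.00332). Its lowest brain sample, at 51.8, overlapped the bone samples.

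Traf1, an adaptor of TNF receptors, fell by 2.25 ± 0.31 and Bcl2a1b by 1.96 ± 0.41 on the log2 scale. Nfkbiz, a nuclear IkB protein that steers secondary response genes, fell by 1.81 ± 0.26, Acod1 by 1.75 ± 0.39, Nfkbid by 1.62 ± 0.33 and Birc3 by 1.29 ± 0.26. Nfkb2, Tnfaip2, Tnf and Clec4e made up the rest, with log2 changes of -1.29, -1.23, -1.18 and -1.13. Some regulators stayed close to 0. Nfkb1 was at 0.07 ± 0.22 and Cebpd at 0.11 ± 0.21 on the log2 scale, and the decoy kinase Irak3, a brake on Toll-like receptor signalling, at 0.00 ± 0.14. None of these 3 passed the test.

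**Figure D3:**
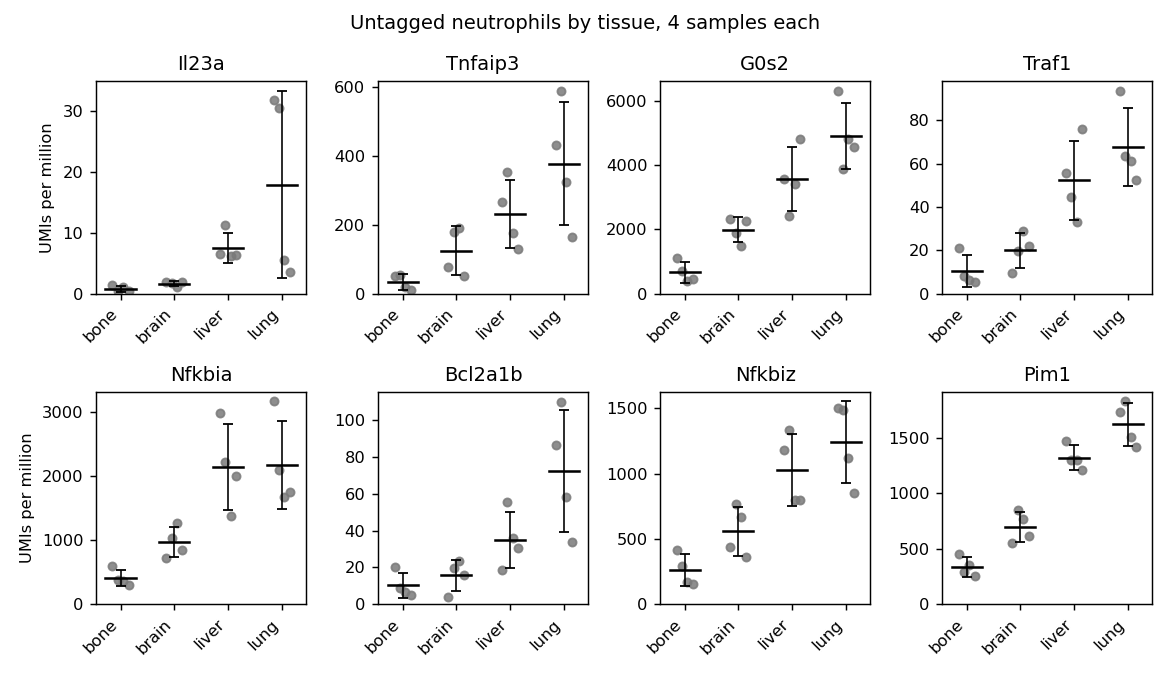
CPM (vertical axis) of 8 members in untagged neutrophils of bone, brain, liver and lung (horizontal axis), with 1 point per sample, the mean as a line and bars of 1 SD. Bone is lowest by mean in all 8 panels, and G0s2, Nfkbia and Pim1 show no overlap of bone with another tissue.

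Lung neutrophils stood at the other end. Against the mean of the other 3 tissues 18 of 32 members rose and 0 fell, where 8.62% of genes were called and 4.67% were higher, and the median log2 fold change was 1.07. The 4 tissue comparisons share all 16 samples, so that a gene low in bone is by construction higher elsewhere, and their values are given side by side only. Il23a rose by 3.12 ± 0.41, Bcl2a1d by 2.38 ± 0.54, Bcl2a1b by 2.02 ± 0.32, Nfkbie, the inhibitor IkB epsilon, by 1.89 ± 0.42 and Tnfaip3 by 1.88 ± 0.38 on the log2 scale. Sod2, the mitochondrial superoxide dismutase, rose by 1.69 ± 0.29. Its lung samples were at 207, 115, 72.4 and 45.6 CPM and its liver samples at 63.2, 50.0, 19.7 and 35.3. Rel rose by 1.05 ± 0.25, with lung samples at 269, 135, 94.7 and 80.6. Lung replicate 1 was the highest of the 4 for many members, and without it 9 members rose rather than 18. The number of all genes called can move in the same fit and is not set beside this count. The calls lost were those of Nfkbie, Bcl2a1d, Sod2, Rel, Nfkb2, Acod1, Tnfaip2, Nfkbid and Tnfrsf1b, and the log2 change of Nfkbie was then 1.081. With the replicate block 25 rose, where 21% of genes were called.

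Liver and brain lay between. In liver 3 members rose, where 0.232% of genes were called: Nfkbia by 1.13 ± 0.18, Map3k8 by 1.04 ± 0.15 and Pim1 by 0.84 ± 0.14 on the log2 scale (edgeR adjusted p = 0.00916, 0.00841 and 0.00916). Map3k8 was at 158, 150, 138 and 117 CPM in liver, above the highest sample elsewhere, at 106. Nfkbia and Pim1 no longer passed without liver replicate 1. The replicate block gave 9 members in liver, where 1.21% of genes were called. In brain 0 members were called by edgeR (0% of genes) and 0 by DESeq2. The smallest p-value there was that of Il23a, at a log2 change of -1.32 ± 0.60 with an adjusted p of 0.999.

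**Figure D4:**
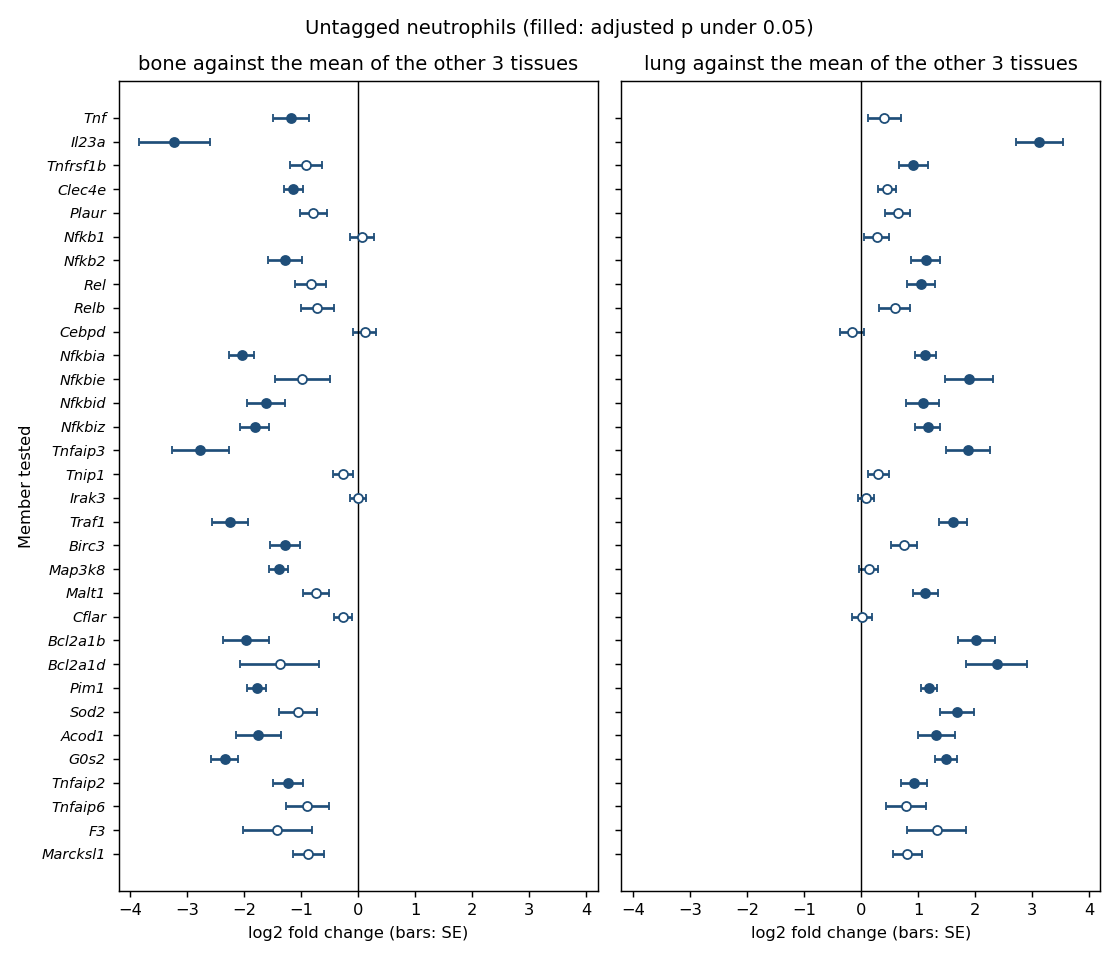
Log2 fold change (horizontal axis, bars of 1 SE) of the 32 tested members in untagged neutrophils, each panel setting 1 tissue against the mean of the other 3. The panels show bone and lung. Filled points passed an adjusted p of 0.05: 16 in bone, all under 0, and 18 in lung, all over 0.

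The makeup of the neutrophil class moved with tissue. Cluster 19, led by Stfa3, Cstdc5 and Stfa2, made up 48.2% of untagged neutrophils in bone, 26.9% in the brain, 7.82% in liver and 2.19% in lung. Cluster 12, led by Il1b, Igfbp6 and Ccrl2, made up 19.3%, 17.0%, 38.6% and 44.2% in the same order. The 12 immature-neutrophil markers were all detected, and their summed median was 21138 CPM in bone, 20133 in the brain, 12841 in liver and 7761 in lung. Within cluster 12 alone the mean summed member level was 6078 in bone, 15744 in the brain (3 samples), 19566 in liver and 21371 in lung (3 samples), and 20 of 31 members fell in bone, where 6.25% of genes were called. Within cluster 16, led by Retnlg and Prok2, it was 4486, 7330, 10616 and 11376, and 7 of 30 members fell in bone, where 2.1% of genes were called: G0s2, Nfkbia, Pim1, Map3k8, Traf1, Nfkbiz and Clec4e. In cluster 16 of lung 1 member, G0s2, rose, where 0.172% of genes were called. A lower bone level was also measured within single clusters, with fewer calls in cluster 16.

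Genes known to respond to tissue dissociation moved in the same direction. In bone 13 of 18 such genes fell and 0 rose, with Dusp1 at a log2 change of -1.90 and Atf3 at -2.79. In lung 8 rose and in liver 4 rose. Their summed level in untagged neutrophils was 5367 ± 1913 CPM in bone, 9302 ± 2518 in the brain, 19338 ± 5925 in liver and 16334 ± 5064 in lung (n = 4 each). By mean, liver stood over lung here and under it for the 39 members, and in both cases the samples of these tissues overlapped. The part of these genes in the result was not tested. Markers of other cells were also summed in these neutrophils, and all genes of the first 3 lists given here were detected. Monocyte markers (16 genes) had medians of 4045 CPM for bone, 3792 for brain, 3030 for liver and 2483 for lung. Alveolar macrophage markers (13 genes) ran from 420.2 in lung to 1215 in brain, and macrophage markers (22 genes) from 321 in brain to 419 in bone. T cell markers (15 genes, 13 to 15 detected) had medians of 193, 211, 262 and 300.6 in bone, brain, liver and lung. The part of these in the result was not tested.

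The further lists were counted in the same comparison. Of 42 further genes of NF-kB signalling (receptors, kinases, adaptors and ubiquitin ligases), 37 were tested and 1 fell in bone, the TNF receptor gene Tnfrsf1a, at a log2 change of -0.50 ± 0.14. Of 30 further known NF-kB targets, 26 were tested, and 14 fell and 1 rose in bone. Those that fell included the chemokine Cxcl2 at -3.03 ± 0.25, the cytokine Il1b at -2.64 ± 0.33 and Ptgs2, the prostaglandin enzyme COX-2, at -2.27 ± 0.43. The one that rose was the granule protease Mmp9, at 0.55 ± 0.15. Median log2 changes in bone were 0.01 for the signalling genes, -1.39 for the further targets and 0.04 for all genes. In lung 12 of the 26 further targets rose and 2 fell, while 2 of the 37 signalling genes rose. Of all genes, 4.67% were called higher and 3.95% lower in lung, and 3.13% and 4.31% in bone. The signalling counts are read as no result about that list.

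Tagged and untagged neutrophils of the same tissue were compared next. No member passed the unpaired edgeR test in any of the 5 comparisons. In bone 0 of 29 members were called (0% of 6274 genes), with 9 at an unadjusted p under 0.05 against 99 of all 6274 genes, and the median log2 change was 0.44 for members and 0.00 for all genes. In brain 0 of 28 were called, with 3 at an unadjusted p under 0.05 against 77 of 4699 genes. In liver 0 of 30 were called, with 2 against 60 of 5157 genes, and in lung 0 of 32, with 0 against 35 of 6265 genes. In the iia bone samples 0 of 21 were called, with 2 at an unadjusted p under 0.05 against 5.84% of genes, and the median log2 change was 0.11 for members and 0.00 for all genes. DESeq2 called 0 in each. The background was 0% of genes in each of these comparisons.

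The summed member level of tagged neutrophils was 5355 ± 1661 CPM in bone, 10317 ± 1349 in the brain, 14646 ± 2207 in liver and 17155 ± 4079 in lung (n = 4 each). Tagged and untagged samples overlapped in bone, liver and lung. Between samples of the same number the tagged one was higher in 4 of 4 in bone, brain and lung and in 3 of 4 in liver, although the numbers did not pair the lung samples by the rule used. In brain the tagged samples, at 8970, 10472, 12120 and 9706, all lay over the untagged ones. In the iia bone samples the levels were 2778 ± 270 in tagged and 2756 ± 88.0 in untagged neutrophils (n = 6 each). These leave out unnamed cluster 7, whose leading genes include the NF-kB targets Cxcl2, Il1b and Ptgs2 and which held 2 neutrophil markers among its top 100 genes. Its summed member level was 14415, 18330, 17972, 15874 and 13577 in 5 tagged samples and 11299, 13253, 12452, 11301 and 9325 in 5 untagged samples. Every tagged sample of cluster 7 was over every untagged one, from 28 to 210 cells per sample, and no test of its members was run. Dissociation genes in cluster 7 were at 11134 to 13790 in tagged and 7884 to 11197 in untagged samples.

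In bone and brain the replicate numbers paired the samples, and the fit with replicate as a block called members that the unpaired fit did not. In bone it called 3 of 29 (0.414% of genes). Tnfaip3 was at 133, 71.6, 54.5 and 49.1 CPM in tagged and 52.7, 53.1, 19.4 and 9.83 in untagged samples 1 to 4, higher in the tagged sample of 4 of 4 pairs, with a blocked log2 change of 1.35 ± 0.22 (edgeR adjusted p = 0.0305). Tnf was at 56.4, 33.9, 31.9 and 32.4 in tagged and 29.3, 24.3, 22.2 and 13.6 in untagged samples (0.87 ± 0.17), and Pim1 had a blocked log2 change of 0.53 ± 0.10. In brain it called 6 of 28 (1.81% of genes), all higher: Nfkbia at 0.69 ± 0.09, Nfkbid at 0.64 ± 0.14, Map3k8 at 0.55 ± 0.14, Acod1 at 0.42 ± 0.11, Tnfaip2 at 0.40 ± 0.10 and G0s2 at 0.37 ± 0.08. The tagged brain samples held 347 neutrophils in all. In tagged sample 2 they were 2.96% of 675 cells, with 11 UMIs of Nfkbid and 12 of Map3k8. Nfkbia in brain was at 1409, 1704, 2238 and 1366 in tagged and 730, 1043, 1277 and 844 in untagged samples, with no overlap. In liver the block called 0 members. The sorts also differed in the makeup of the class: cluster 12 held 33.4% of tagged and 17.0% of untagged brain neutrophils, and cluster 16 held 34.0% and 47.9%. In bone these shares were 21.7% and 19.3%, and 30.5% and 30.4%. Cluster 13 held 7.14% of tagged and 2.09% of untagged bone neutrophils, and cluster 19 held 40.7% and 48.2%. The median summed member level was 14821 CPM in cluster 13 and 5137 in cluster 19. Within cluster 12 of bone the unpaired edgeR fit called 1 member, Tnfaip3, at a log2 change of 2.46 ± 0.36 (adjusted p = 0.00709), where 0.0931% of genes were called, and within cluster 16 of bone it called 0% of genes. Within either cluster alone the unpaired edgeR fit called 0% of genes in brain, where 18 members (cluster 12) and 24 (cluster 16) were tested. Dissociation genes were higher in the tagged sample of 4 of 4 pairs in both tissues, at 12979 ± 2739 against 9302 ± 2518 CPM in brain and 6885 ± 2350 against 5367 ± 1913 in bone (SD, n = 4 each). The part of makeup or dissociation genes in these calls was not tested.

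Monocytes gave a similar picture. In the unpaired fit 0 members passed in any of the 5 comparisons, with 0% of all genes called in each, and 5 of 32 were at an unadjusted p under 0.05 in bone, 3 of 33 in brain, 1 of 31 in liver, 4 of 32 in lung and 3 of 34 in the iia bone samples. Of all genes, 336 of 7400, 472 of 8265, 210 of 8119, 511 of 7879 and 802 of 9280 were under the same threshold in these comparisons. DESeq2 called 1 in lung, with its count over all genes given in the closing section, and 0 in the others. The brain, liver and iia comparisons had 3 tagged samples with enough monocytes (at least 10). Over all 4 tagged brain samples there were 53 monocytes, and 1 sample reached 20 of them. Values are given for Acod1 in lung and G0s2 in bone, neither of which passed. In lung Acod1 was at 57.8, 147, 271 and 116 CPM in tagged and 41.3, 35.9, 21.04 and 5.45 in untagged monocytes, with no overlap and a log2 change of 2.49 ± 0.54 (edgeR adjusted p = 0.246). In bone G0s2 was at 140, 39.1, 21.4 and 550.5 in tagged and 35.7, 20.4, 45.0 and 23.4 in untagged samples, which overlapped, with a log2 change of 2.40 ± 0.65 (edgeR adjusted p = 1). Tagged bone sample 4, at 550.5, held the smallest share of monocytes of its group, 2.31% of 865 cells. It also held the largest share of neutrophils, 45.7%, and their part in this value was not tested. With the replicate block, 4 members were called in brain monocytes (0.448% of genes; G0s2 at 1.997, Bcl2a1b at 1.61, Nfkbia at 0.97 and Acod1 at 1.73) and 1 in liver (0.406% of genes; Bcl2a1b at 1.10). The makeup of the class moved with the sort here too. Cluster 17, led by Ace, Adgre4 and Cd300e, held 48.8% of tagged and 16.1% of untagged lung monocytes, with 31.2% against 13.97% for bone, 28.3% against 12.6% for brain and 22.1% against 7.92% for liver. Its median summed member level was 6444 CPM, against 4252 in cluster 21 and 1873 in cluster 1. The part of this makeup in the monocyte values was not tested.

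Finally, all kept cells of a sample were summed. In such sums a change in the number of cells of a type and a change in the RNA per cell cannot be told apart. In bone 0 of 36 members were called by edgeR (0% of genes; 0 at an unadjusted p under 0.05) and 0 by DESeq2. In liver 0 of 37 were called by edgeR (0% of genes). DESeq2 called 1, and its count over all genes is given in the closing section. That member was Plau, at a log2 change of 2.51 ± 0.62.

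In brain 1 of 35 members rose, where 3.06% of genes were called and 2.88% were higher. Plau was at 8.24, 28.9, 16.6 and 8.90 CPM in tagged and 2.23, 2.37, 1.51 and 1.22 in untagged samples, with no overlap. Its log2 change was 2.77 ± 0.44 (adjusted p = 0.0193), and the call rested on 8 to 93 UMIs per sample. It was lost without untagged sample 1, 3 or 4 or tagged sample 4. The replicate block called 3 (6.89% of genes), Plau at 2.59 ± 0.32, Tnf at 1.87 ± 0.37 and Bcl2a1b at 1.61 ± 0.31. Tnf was at 50.3, 520.1, 194 and 180.1 in tagged and 30.7, 47.2, 53.9 and 29.2 in untagged samples. Macrophages made up 13.005% to 81.0% of tagged and at most 8.01% of untagged brain cells, and microglia 3.26% to 45.4% and at most 0.665%. Dissociation genes over all brain cells were at 21326 ± 10675 CPM in tagged and 10334 ± 2790 in untagged samples (SD, n = 4 each), and tagged sample 2, the highest for Tnf, was the highest at 34097. Microglia had the highest pooled class median of both Plau and Tnf. In tagged brain samples 2, 3 and 4, Plau was at 38.0, 64.1 and 13.5 CPM in macrophages. In microglia of the same samples it was at 0, 29.5 and 18.1. Tnf there was at 615.5, 151.6 and 80.8 in macrophages and 1073, 504.5 and 403.4 in microglia. The part of these cells and of the dissociation genes in the result was not tested.

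In lung 3 of 38 members rose, where 18.3% of genes were called, 11.5% higher and 6.8% lower. Bcl2a1d was at 173, 139, 122 and 90.8 CPM in tagged and 61.5, 39.1, 65.9 and 45.6 in untagged samples, a log2 change of 1.07 ± 0.19 (adjusted p = 0.00725). Bcl2a1b was at 533, 414, 334 and 320.0 in tagged and 222, 154, 193 and 166 in untagged samples (0.87 ± 0.18, adjusted p = 0.0125). Plau was at 8.21, 3.11, 1.62 and 2.27 in tagged and 1.04, 0.680, 0.939 and 0.461 in untagged samples (2.06 ± 0.51, adjusted p = 0.0248), on 7 to 12 UMIs per untagged sample, and its call was lost without untagged sample 1, 3 or 4 or tagged sample 1, the last of which lowered the log2 change to 1.396. Alveolar macrophages, which had the highest median of Bcl2a1d, made up 14.7% to 81.3% of tagged and at most 0.834% of untagged lung cells, and their part in the result was not tested. The share of members called was under the background share. Of the 42 further signalling genes 3 rose and 6 fell, among them Birc2, a ubiquitin ligase of TNF receptor complexes, at -1.04 ± 0.21. Of 29 further targets tested, 1 fell, the activation marker Cd69.

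In the iia bone samples 8 of 36 members were called, where 50.2% of genes were called (27.0% higher and 23.2% lower). The members' share was under that background and is read as no result about the list. Cebpd had a lowest, median and highest level of 147, 165 and 176 CPM in the 6 untagged samples and 69.0, 93.2 and 132 in the 6 tagged ones, and fell by 1.03 ± 0.16 on the log2 scale (adjusted p = 0.000236). Plaur was at 248, 325 and 393 in untagged and 78.1, 138 and 272 in tagged samples, and fell by 1.24 ± 0.30. Map3k8 fell by 1.05 ± 0.28, Birc3 by 0.79 ± 0.24 and Rel by 0.57 ± 0.20. The call of Rel was lost in 7 of the 12 fits that left out 1 sample.

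The 3 members that rose were Bcl2a1b, Tnfaip6 and Sod2. Sod2 was at 31.4, 34.3 and 36.5 in untagged and 40.9, 52.9 and 87.9 in tagged samples, a log2 change of 0.61 ± 0.18 (adjusted p = 0.0139). Bcl2a1b was at 6.54, 11.99 and 23.9 in untagged and 13.5, 34.5 and 212 in tagged samples (2.51 ± 0.74, adjusted p = 0.0139). Tagged samples 2 and 3, at 205 and 212, lay far over the other 4, which were between 13.5 and 52.4. Tnfaip6, a hyaluronan-binding protein of inflamed matrix, rose by 1.81 ± 0.57. Tagged sample 2 was at 119 CPM and the other 5 tagged samples between 9.30 and 41.8, and without it the log2 change was 1.125. Immature neutrophils made up 18.6% to 39.5% of untagged and 3.30% to 13.5% of tagged cells, and macrophages at most 2.30% and 4.02% to 52.0%. Cluster 7 held 28 to 99 cells in each of 5 untagged samples of 2322 to 3480 cells, and 39 to 210 cells in each of 5 tagged samples of 423 to 2140 cells. Their part in the result was not tested.

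The further lists are given for the iia samples as a description, since their shares called were also under the background of 50.2%. Of the 42 further signalling genes 15 fell, led by Rnf31 at -0.77 ± 0.11 and Myd88 at -0.67 ± 0.10, and 3 rose. Of the 27 further targets tested 6 rose, led by the adhesion gene Vcam1 at 2.62 ± 0.25, and 2 fell, the chemokine Ccl5 at -2.99 ± 0.46 and Lcn2, a neutrophil granule protein, at -2.25 ± 0.25.

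**Figure D5:**
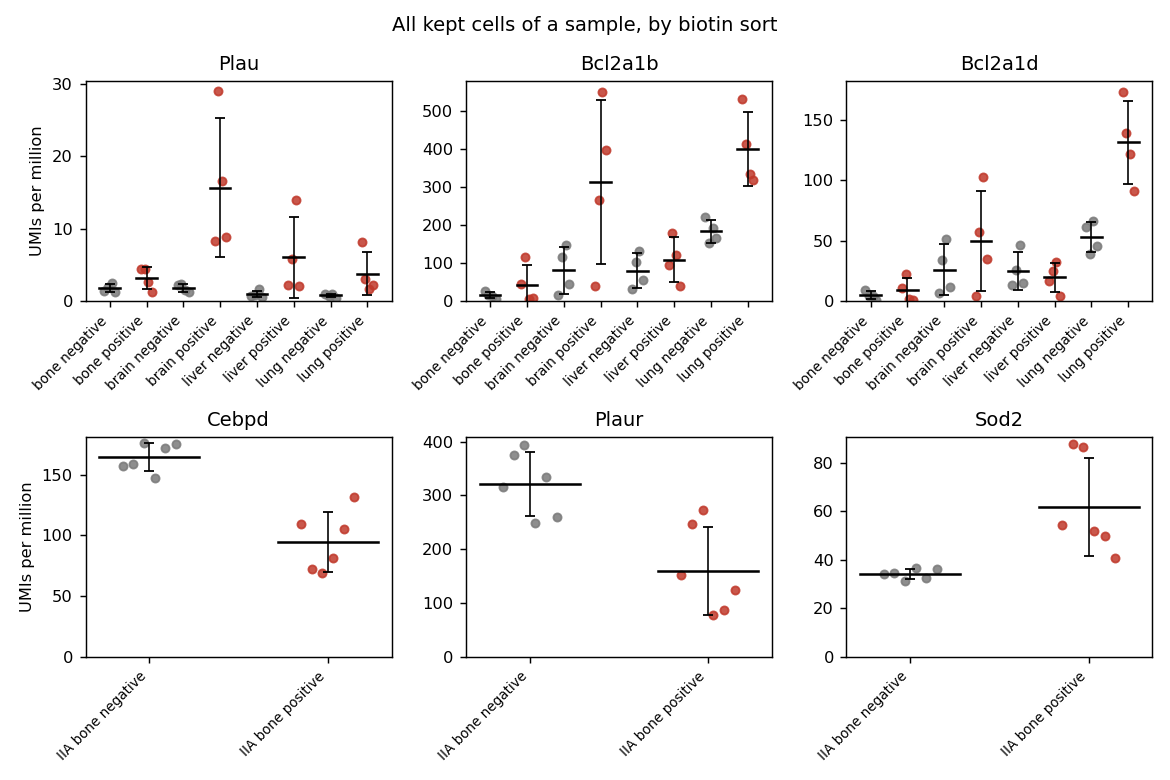
CPM (vertical axis) over all kept cells of a sample, by tissue and biotin sort (horizontal axis), with 1 point per sample, the mean as a line and bars of 1 SD. The upper panels show Plau, Bcl2a1b and Bcl2a1d after intracardiac injection, and the lower panels Cebpd, Plaur and Sod2 in the iia bone samples.

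Whether the biotin difference over all cells varied with tissue was tested with an interaction term over the 4 intracardiac tissues. Of 38 members 0 were called by edgeR, where 1.15% of 13963 genes were, and 0 by DESeq2. Tnf and Plau had the smallest p-values among the members, with edgeR adjusted p-values of 0.253 and 0.291.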

How the data were processed

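The unit is UMI counts per gene and cell, deposited by the authors in filtered matrices (Cell Ranger 6.1.2 for the intracardiac and 7.1.0 for the iia libraries per the file headers; mm10, per the submitters' processing notes). Barcodes under 500 UMIs or 200 genes, or over 15% mitochondrial counts, were dropped. The iia barcodes were assigned where 1 hashtag had at least 10 counts and 3 times the second, which gave 22685 of 26666 barcodes. Hashtag names were matched to the deposited key by number only. Cells were clustered with scanpy 1.11.5 (2000 variable genes without the 39 members, 30 principal components, 15 neighbours, Leiden resolution 1) and named from 24 marker lists (278 genes), needing 3 markers. Doublets were not removed. An alternative dropped the 5% highest Scrublet scores.

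Counts were summed per sample and class (at least 10 cells for a test, at least 20 for a level) and tested with edgeR 4.0.16 (filterByExpr, TMM, quasi-likelihood; R 4.3.3) over all genes, with Benjamini-Hochberg adjustment within each of 20 comparisons. DESeq2 1.42.0 was an alternative. Fold changes are log2 after TMM. On simulated counts with 4 samples a group for lung neutrophils, 33% of log2 changes of 1 and 90.5% of log2 changes of 2 were recovered (2% and 90.5% over all lung cells). Values per sample are given for members at an adjusted p under 0.05, at most 12 per comparison by size of change, or, where none passed, for some of the 3 with the smallest p. Of the other lists at most 4 genes were named per comparison, by adjusted p, and the lung Cd69 and bone Mmp9 and Tnfrsf1a because a count was small. The members, lists and tests were chosen with earlier results of these data known.

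Replicate numbers were taken to pair samples where every same-number correlation of deviations was over 0.1. This held for bone (0.448 to 0.738), brain (0.213 to 0.629) and liver (0.256 to 0.501), and for untagged neutrophils across tissues in 24 of 24 correlations (0.124 to 0.619). It did not hold for lung (-0.0916 to 0.481) or the iia samples (0.0778 to 0.562). The fits within neutrophil cluster 12 or 16 only were added after the data were seen. Promoters came from the RefSeq table, on GRCm38.p6.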

Additional observations from a re-analysis of the deposited data

Results flagged for a closer look

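In 10 of 132 groups of 4 to 6 samples, 1 sample lay far from the others by a gap test that chance meets in about 1 group of 20. In untagged neutrophils of bone, replicate 1 was the high sample for 5 members: Clec4e at 664 CPM (next 419.7), Rel at 106 (45.3), Tnfrsf1b at 65.8 (31.8), Sod2 at 54.1 (21) and Nfkbie at 40.2 (8.44). In untagged brain neutrophils Bcl2a1d was at 5.57 in replicate 3 (next 1.16), and in untagged liver neutrophils Il23a was at 11.3 in replicate 2 (6.50). In the iia bone samples, untagged sample 2 was high for the summed member level of neutrophils, at 2929 (next 2749), and for Bcl2a1b over all cells, at 23.9 (12.5). Tagged sample 2 was high for Tnfaip6 over all cells, at 119 (41.8).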

How the results depend on the processing

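No called member changed direction under any alternative. Leaving out 1 sample at a time kept 679 of 720 calls of named members. The counts of members called then ran from 13 to 22 in untagged bone neutrophils (16 with all samples), 9 to 21 in lung (18), 1 to 5 in liver (3), 0 to 2 over all brain cells (1), 2 to 3 over all lung cells (3) and 7 to 11 over all iia cells (8), and were 0 to 0 elsewhere. The liver count was 5 without bone replicate 1 and 1 without liver replicate 1. The number of all genes called can move in these fits too and is not set beside these counts. DESeq2 called 2 over all brain cells (1225 of 11064 genes), 1 over all liver cells (431 of 11854), 6 over all lung cells (3094 of 12331), 1 in lung monocytes (28 of 7879) and 7 in liver neutrophils (44 of 7753). Without the low-count filter the counts were 1 for the sorts of bone neutrophils (6 of 16025 genes), 2, 4, 5 and 2 for bone, brain, lung and iia monocytes (33 of 15674, 33 of 14944, 70 of 15780 and 81 of 17867 genes), and 6 for liver neutrophils by tissue (59 of 17849). Leiden resolution 0.5 gave 1 in iia monocytes (51 of 8915 genes), and 10 of 37 named calls were lost there: Nfkbid, Il23a, Tnfaip2 and Tnf in bone, Pim1 in liver, and Tnfrsf1b, Nfkbid, Rel, Tnfaip2 and Acod1 in lung neutrophils. Neutrophil cluster 12 alone gave 1 for the bone sorts (0.0931% of genes) and 9 for liver (0.542% of genes). Cluster 16 alone gave 7 for bone (2.1% of genes) and 1 for lung (0.172% of genes). In liver Nfkbia and Map3k8 kept their calls within cluster 16 (0.172% of genes) and Pim1 did not. With the replicate block the counts were 26 for bone and 9 for liver neutrophils by tissue, 3 over all brain cells, 3, 6 and 1 for the sorts of bone, brain and lung neutrophils, and 4, 1 and 6 for brain, liver and lung monocytes. In lung 0.335% of genes were called in neutrophils and 3.24% in monocytes under the block, and Acod1 in lung monocytes had a blocked adjusted p of 0.00113 (edgeR). The block moved 8 to 11 over all iia cells (49.1% of genes) and 3 to 4 over all lung cells (20.8% of genes). Both member shares were under that background. The samples there share only a number, and 3 of 4 lung and 3 of 6 iia samples correlated best with their own number. The causes were not tested. For members with few UMIs, such as Il12b, Ptx3 and Plau in neutrophils, low depth and absence of the RNA cannot be told apart.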
